A study of Homo sapiens with 6 samples.

Results

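Flavin-containing monooxygenases were followed in hepatocyte-like cells exposed to HFPO-TA (the trimer acid of hexafluoropropylene oxide), a perfluoroalkyl ether acid. The family was taken by gene symbol as FMO1, FMO2, FMO4 and FMO5, 4 of the 60623 genes in the deposited tables. It was selected on measured values, the lower FMO1 level of these HFPO-TA libraries against these DMSO libraries, so the contrast of treatment with vehicle is given for these 4 genes as a description, and values that the fit over all genes returns for them are no test. The cells, differentiated from the human embryonic stem cell line H9, are labelled hepatoblasts at day 19. The vehicle group (0.1% DMSO) and the HFPO-TA group (a dose printed as 10 with an unclear unit) had 3 libraries each. A share of DMSO is stated for the control libraries alone. All 6 libraries came from the same line. Separate cultures within a group are not stated, so the p-values rest on a spread between libraries that may be technical.

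FMO enzymes sit in the endoplasmic reticulum, carry FAD, take electrons directly from NADPH and add an oxygen atom from molecular oxygen to soft nitrogen and sulfur atoms of drugs, amines and thioethers. They differ in this from the cytochromes P450 of the same membrane, which receive their electrons from the reductase POR. FMO1 is the form of human fetal liver, is switched off in liver around birth and stays high in adult kidney. FMO2 is the form of lung, FMO4 is low in most tissues, and FMO5 is abundant in adult liver and intestine and inserts oxygen next to a carbonyl group. FMO1 also makes taurine from hypotaurine.

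FMO2, FMO1 and FMO4 lie side by side on the plus strand of chromosome 1, within 156.9 kb. In GENCODE 29 (GRCh38) FMO2 spans 171185208 to 171211230, FMO1 171248471 to 171285978 and FMO4 171314208 to 171342084. FMO5 lies apart on the minus strand of the same chromosome, from 147175351 to 147243050, 23.9 Mb before FMO2. RefSeq gives 2 start sites for FMO1, 9429 bases apart, and 1 each for FMO4 and FMO5. That of FMO5, at 147225339, lies inside the GENCODE span and not at its 5′ end. Promoter windows (250 bases before to 50 after a start) were matched for 3 of the 4 genes; FMO2 had no entry. The 2 windows of FMO1 are shown because the family was taken for the lower level of FMO1, and that of FMO5 because it was the most abundant member with HFPO-TA. They are from RefSeq, build GRCh38.p14, 5′ to 3′ on the strand of the gene, at chr1:171248244-171248543 (plus), chr1:171257673-171257972 (plus) and chr1:147225290-147225589 (minus). Capitals mark TATAAA, the letters of the TATA box at which the general transcription machinery can assemble, and AGGTCA, the core that nuclear receptors bind, each on either strand.
FMO1 upstream start: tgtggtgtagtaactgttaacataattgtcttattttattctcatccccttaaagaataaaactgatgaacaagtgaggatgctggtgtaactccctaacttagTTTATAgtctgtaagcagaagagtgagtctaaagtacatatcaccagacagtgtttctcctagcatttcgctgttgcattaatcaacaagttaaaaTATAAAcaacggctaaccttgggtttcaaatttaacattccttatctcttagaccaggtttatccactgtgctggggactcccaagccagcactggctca
FMO1 downstream start: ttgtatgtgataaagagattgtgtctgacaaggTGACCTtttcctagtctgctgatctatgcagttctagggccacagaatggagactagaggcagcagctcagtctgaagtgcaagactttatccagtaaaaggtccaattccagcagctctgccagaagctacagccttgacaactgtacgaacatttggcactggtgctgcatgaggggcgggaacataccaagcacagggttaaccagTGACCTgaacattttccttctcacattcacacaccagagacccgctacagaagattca
FMO5 start: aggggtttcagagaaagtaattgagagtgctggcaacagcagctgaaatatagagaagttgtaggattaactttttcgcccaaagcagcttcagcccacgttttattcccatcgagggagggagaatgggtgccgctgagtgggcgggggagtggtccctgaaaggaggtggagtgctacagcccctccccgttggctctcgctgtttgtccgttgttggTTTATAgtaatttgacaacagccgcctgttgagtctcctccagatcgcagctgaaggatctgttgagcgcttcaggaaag

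The window of the upstream FMO1 start held TATAAA at position -50 from the start and, on the opposite strand, at position -146. The window of the downstream start held no TATAAA and held AGGTCA on the opposite strand at positions -217 and -8. The FMO5 window held TATAAA on the opposite strand at position -30. TATAAA occurred in 11.5% of the 35116 promoter windows of the same length, and AGGTCA in 13.8%. The FMO4 window held neither. The HNF4 core CAAAGTCCA (0.384% of all windows), the FOXA core TGTTTAC (3.42%) and the E-box CACGTG (7.26%) were in none of the 4 windows. The YY1 core GCCAT (37.8% of all windows) was in the FMO4 window alone, on the opposite strand at position -179. A match is a run of letters, not a measured site.

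The values were read as TPM, an abundance scaled for gene length and library total, so levels can be set beside each other. Levels of FMO1 with DMSO were 18.2, 29.6 and 25.7 TPM in replicates 1, 2 and 3. With HFPO-TA they were 8.87, 5.38 and 7.71 TPM. All HFPO-TA libraries lay below all DMSO libraries. The group means were 24.5 ± 5.78 and 7.32 ± 1.78 TPM (SD, n = 3 each), a ratio of 3.35 and a difference of -1.61 on the log2(TPM + 1) scale (SE 0.21). This difference was the 14th lowest among the 15664 genes tested, those that reached 1 TPM in 3 or more libraries. It was computed from the contrast that chose the gene. Among genes with any reads, FMO1 stood above 84.6% with DMSO and above 67.9% with HFPO-TA. In bulk RNA, fewer cells that express a gene and less RNA per cell cannot be told apart.

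FMO5 stood at 24.3, 30.5 and 26.9 TPM with DMSO and at 19.3, 23.2 and 21.7 TPM with HFPO-TA. Here too the groups did not overlap, by a margin smaller than the spread within either group. The means were 27.2 ± 3.11 and 21.4 ± 1.95 TPM (SD, n = 3 each), a difference of -0.33 on the log2(TPM + 1) scale (SE 0.11). The change of the mean with HFPO-TA was -21.5% for FMO5 and -70.1% for FMO1.

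FMO4 stood at 4.11 and 4.38 TPM in DMSO replicates 1 and 2 but at 36.5 TPM in DMSO replicate 3. With HFPO-TA it stood at 3.40, 3.77 and 4.20 TPM. Replicate 3 of DMSO was 8.32 times the highest of the other 5 libraries, and without it the groups overlapped. The log2 difference was -1.08 (SE 0.81) with all libraries and -0.13 without DMSO replicate 3, so the lower mean of FMO4 with HFPO-TA rests on that library. FMO1 and FMO5 were not outside the range of the other DMSO libraries in it. Values of this kind, at least 10 TPM and at least 5 times the highest of the other 5 libraries, were seen in 34 tested genes, 20 of them protein-coding. DMSO replicate 3 held 11 of the 34 and 3 of the 20, and the other libraries 3 to 6 and 2 to 5 each.

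FMO2 was near 0 throughout, at 0.12, 0.46 and 0.11 TPM with DMSO and 0.45, 0.02 and 0.16 TPM with HFPO-TA. It lay below the filter and was not tested, and its groups overlapped. The 7 other rows of the family in the tables, which are not members, ranged from 0 to 1.38 TPM, and 4 of them were at 0 in every library.

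**Figure D1:**
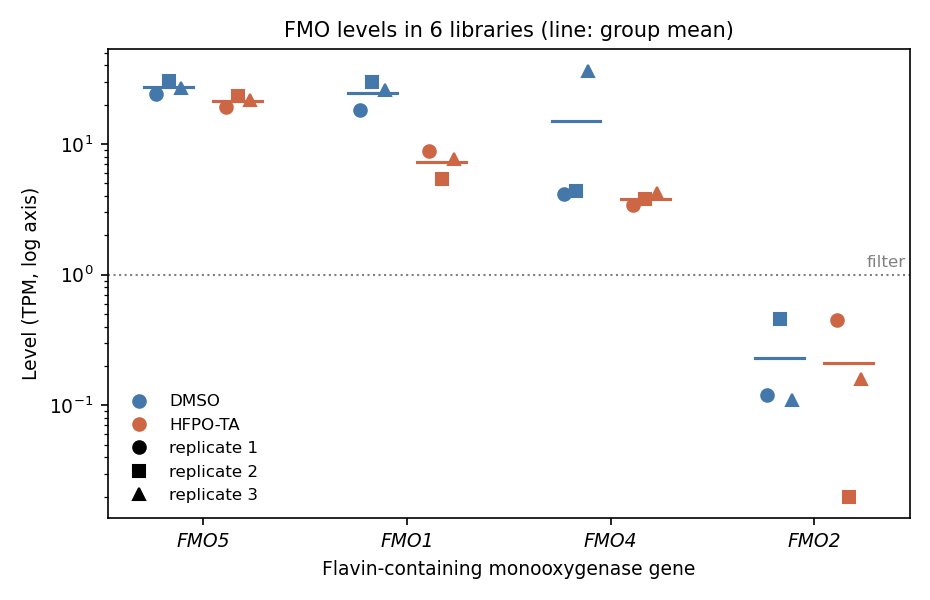
Levels of the 4 FMO genes in TPM on a log axis, with a point per library (blue DMSO, orange HFPO-TA, shape by replicate) and a line at each group mean. FMO1 points with HFPO-TA (5.38 to 8.87 TPM) lie below those with DMSO (18.2 to 29.6 TPM), FMO4 has a single high point at 36.5 TPM in DMSO replicate 3, and FMO2 stays below the filter of 1 TPM.

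In the fit over all genes 0.492% of the tested genes were called at an adjusted p under 0.05 (limma), 0.306% of them lower. FMO1 was among the called genes, and nothing is read from that, since this contrast chose it. FMO1 and FMO5 had groups that did not overlap, lower with HFPO-TA, as did 9.4% of tested genes; this too uses the contrast that chose the family. With 1 library left out, the log2 difference of FMO1 ran from -1.80 (without DMSO replicate 1) to -1.43 (without HFPO-TA replicate 2).

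The order of the members was the same in every library except DMSO replicate 3, but the ratio of FMO5 to FMO1 differed between the groups. With DMSO, FMO5 was above FMO1 in each of the 3 libraries, but by only 1.03 to 1.33 times. The ranges of the 2 genes overlapped, and their difference within libraries was not tested. FMO4 came next in replicates 1 and 2 and first in replicate 3. With HFPO-TA the order was FMO5, FMO1, FMO4 and FMO2 in every library and no neighbouring ranges overlapped. FMO5 was then 2.17, 4.30 and 2.81 times FMO1.

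Of the summed level of FMO1 and FMO5, FMO1 made up 42.9%, 49.2% and 48.9% in the DMSO libraries. It made up 31.5%, 18.9% and 26.3% in the HFPO-TA libraries. FMO1 and FMO5 thus stood at near equal amounts with DMSO and with an excess of FMO5 with HFPO-TA. This share and the sums below use the FMO1 values that chose the family, so they are descriptions. The 4 members summed to 46.8, 64.9 and 89.2 TPM with DMSO and to 32.0, 32.3 and 33.7 TPM with HFPO-TA. Without FMO4 the sums were 42.7, 60.6 and 52.7 TPM against 28.6, 28.6 and 29.5 TPM, so the lower sum with HFPO-TA does not rest on FMO4.

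**Figure D2:**
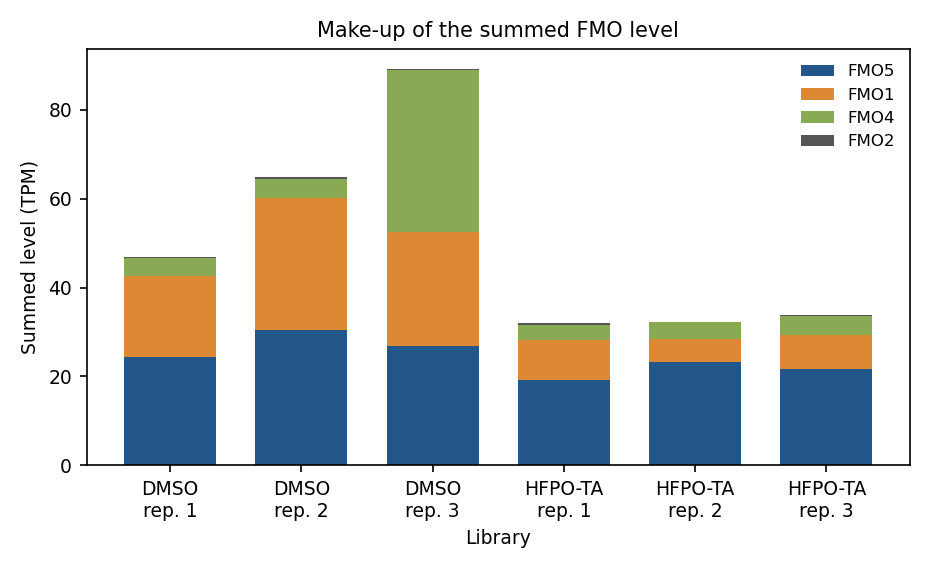
Summed TPM of the FMO genes in each library, stacked by gene, with bars starting at 0. The HFPO-TA bars (32.0 to 33.7 TPM) are shorter than the DMSO bars (46.8 to 89.2 TPM). The FMO1 segment is shorter in each HFPO-TA bar than in any DMSO bar, and the FMO4 segment (36.5 TPM) is the largest in DMSO replicate 3.

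The 5′ end of FMO1, with its upstream start, lies within BX284613.2, an antisense gene at 171247580 to 171251794 on the minus strand, named after its values were seen. BX284613.2 stood at 1.20, 0.94 and 1.86 TPM with DMSO and 0.64, 0.18 and 0.51 TPM with HFPO-TA. It was below the filter and not tested; its groups did not overlap, and it was lower with HFPO-TA as FMO1 was. The sources used here do not say whether the libraries kept strand, so reads of BX284613.2 and of the overlapping part of FMO1 cannot be told apart. Its level was at most 7.23% of that of FMO1 in any library.

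**Figure D3:**
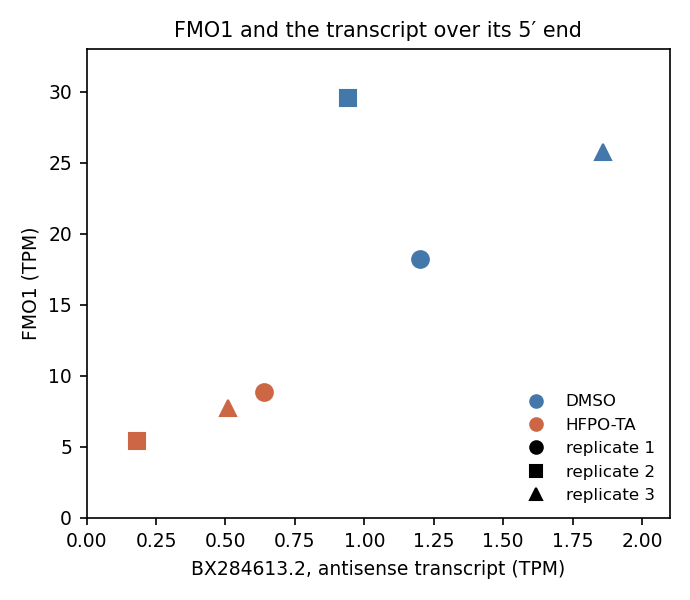
FMO1 against the antisense transcript BX284613.2, both in TPM on linear axes from 0, with a point per library. The 3 HFPO-TA libraries lie at the lower left of all 3 DMSO libraries on both axes.

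FMO5 is overlapped on the opposite strand by the start of CHD1L, a chromatin remodeller, at 31.2 ± 4.81 and 26.2 ± 0.48 TPM (SD, n = 3 each), and holds the pseudogene CCT8P1, whose reads may be those of its parent gene and which was named after its values were seen, at 3.97 ± 0.72 and 2.66 ± 0.25 TPM. Neither passed the test (adjusted p = 0.477 and 0.334, limma). The antisense gene AC242426.2, named after its values were seen, spans the whole of FMO5. It stood at 0.32, 2.37 and 0.17 TPM with DMSO and at 1.59, 2.83 and 0.45 TPM with HFPO-TA (adjusted p = 0.769, limma). If the libraries did not keep strand, reads of AC242426.2 and of FMO5 cannot be told apart. The other protein-coding neighbours within 200 kb of a member were PRRC2C at 53.4 ± 5.09 and 47.0 ± 1.08 TPM, PRKAB2 at 89.8 ± 5.52 and 93.1 ± 4.06 TPM, NBPF12 at 12.3 ± 0.69 and 12.7 ± 0.41 TPM and MROH9, listed at 0. None of the 3 that were tested passed (adjusted p from 0.450 to 0.884, limma). The log2 difference of PRRC2C, on the far side of FMO4, was -0.18, against -1.61 for FMO1.

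Little transcript sequence is shared between members. No word of 31 bases in a GENCODE 29 transcript of one member occurred in a transcript of another member. Of such words, 4.88% of FMO1, 3.37% of FMO5 and 0% of FMO4 occurred in transcripts of any other gene on either strand. For FMO1 most of these were in HMGB1P11, a pseudogene inside it (0 to 0.59 TPM), and its parent HMGB1.

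By Pearson's r of log2(TPM + 1) over the 6 libraries, the protein-coding genes most like FMO1 were LPGAT1, MMP1, MDM1, NTN4 and FILIP1L (r from 0.989 to 0.995). MMP1, a collagenase, stood at 7.15 ± 1.14 and 3.30 ± 0.37 TPM, and LPGAT1, a lysophospholipid acyltransferase, at 44.0 ± 3.18 and 32.0 ± 1.18 TPM (SD, n = 3 each). Those most like FMO5 were LGALS3, PMS2, FETUB, ACOT8 and TUBB4B (r from 0.981 to 0.995). FETUB, a secreted protease inhibitor of liver, stood at 8.95 ± 4.84 and 2.13 ± 0.96 TPM. Among those most like FMO4 were TRIR, SCHIP1, RALGAPA2 and PTBP2 (r from 0.981 to 0.990), a ranking set by DMSO replicate 3. None of the 15 genes ranked in this way passed the test over all genes (adjusted p from 0.0548 to 0.881, limma). With group means removed, SGO1, ZC3H14 and MOB4 were most like FMO1, TMEM204, ACOT8 and PMS2 most like FMO5, and ELMO3, SCAMP5 and TRIR most like FMO4 (r from 0.988 to 0.998). With 6 points, and genes picked as the highest over the whole table, such values are descriptions. FMO1 and FMO5 correlated at 0.80 over the 6 libraries and at 0.14 with group means removed.

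The cells carried markers of the labelled type and also of other types, so passing the filter does not set a type apart. All 14 hepatocyte and hepatoblast markers passed the filter, and they summed to between 112856 and 125846 TPM with DMSO and between 99719 and 107687 TPM with HFPO-TA, mostly AFP. Their median log2 difference was -0.23, with 11 of 14 below 0, where 51.7% of all tested genes were below 0. FGB, a fibrinogen chain, fell (-0.97, SE 0.09, adjusted p = 0.0104, limma) and the other 13 did not pass. The marker sums and FMO1 were both lower in the HFPO-TA libraries. FGB did not pass without DMSO replicate 2 or 3 or HFPO-TA replicate 2 (highest adjusted p 0.103). The part of these markers in the level of FMO1 was not tested. Adult kidney also makes FMO1, and 3 of 10 kidney tubule markers passed the filter (LRP2, CUBN and SLC22A6), while SLC12A3, UMOD and AQP2 were at 0. The 10 summed to 95.6 to 104.3 TPM with DMSO and 76.5 to 88.7 TPM with HFPO-TA, without overlap. That sum was mostly LRP2 and CUBN, and none of the 3 tested was called. PAX2, PAX8, SLC34A1 and SLC12A1 stood at 0 to 0.29 TPM. Of 9 lung markers 3 passed and NKX2-1 and SCGB1A1 were at 0 (sums 6.02 to 9.62 and 6.66 to 9.93 TPM). Stromal markers, 13 of 14 above the filter, summed to 1397 to 2034 TPM with DMSO and 1136 to 2314 TPM with HFPO-TA. The 13 all had log2 differences below 0 (median -0.22), where 51.7% of all tested genes did, and none was called. In TPM the means of LUM, DCN and ACTA2 were higher with HFPO-TA and those of the others lower. DCN ran from 4.50 to 39.3 TPM among the HFPO-TA libraries. Summed biliary (8 of 8 above the filter), endothelial (7 of 8), neural (2 of 8, SOX1 and NEUROG2 at 0) and pluripotent markers (5 of 8) overlapped between groups. Summed intestinal markers (7 of 10) did not, at 371 to 397 TPM with DMSO and 345 to 357 TPM with HFPO-TA. That intestinal sum was mostly VIL1, CDH17 and CDX2 (means of 211, 64.1 and 61.6 TPM with DMSO), while LGR5, MUC2 and SI did not pass the filter. Biliary sums were 1328 to 1347 TPM with DMSO and 1253 to 1390 TPM with HFPO-TA. The part of these cell types in the FMO levels was not tested.

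Genes around the FMO reaction were counted in 7 lists, 104 of whose 137 genes were tested. Of these 3 rose and 2 fell, against 0.185% and 0.306% of all tested genes. The lists were chosen with results of these data known.

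FMO enzymes draw on NADPH, so electron carriers and NADPH supply were taken as 1 list. Of 16 tested, IDH1 and CYB5A rose, none fell, and the median log2 difference was 0.09, against -0.01 for all tested genes. IDH1, which makes NADPH from isocitrate in the cytosol, rose from 210 ± 6.82 to 297 ± 20.6 TPM (log2 difference 0.50, SE 0.07, adjusted p = 0.0324, limma). CYB5A, the cytochrome b5 that passes electrons to P450 enzymes, rose from 286 ± 8.39 to 379 ± 22.1 TPM (0.41, SE 0.06, adjusted p = 0.0418, limma). With 1 library left out, each passed in 1 of 6 fits, the fit that omits HFPO-TA replicate 1 (highest adjusted p 0.189 for IDH1 and 0.227 for CYB5A). POR, the P450 reductase, named after its values were seen, stood at 144 ± 5.42 and 219 ± 29.6 TPM (adjusted p = 0.0534, limma).

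FAD supply had 5 of 7 genes tested, none called, and a median of -0.00; ENPP1, a nucleotide pyrophosphatase, had the smallest p (4.27 ± 0.62 and 5.29 ± 0.69 TPM, adjusted p = 0.570, limma). In the list of taurine synthesis, uptake and conjugation, 1 of 9 tested genes fell and none rose (median -0.08). It was SLC36A1, a lysosomal amino acid transporter and no step of taurine synthesis, from 28.6 ± 1.13 to 19.2 ± 1.27 TPM (-0.55, SE 0.09, adjusted p = 0.0465, limma), and with 1 library left out it passed only in the fit that omits HFPO-TA replicate 1 (highest adjusted p 0.247). The enzymes that make hypotaurine, named after their values were seen, were not called. CSAD, the decarboxylase, stood at 14.8 ± 1.73 and 14.0 ± 2.38 TPM, and CDO1, the cysteine dioxygenase, at 3.53 ± 0.51 and 3.90 ± 0.20 TPM. Among 23 tested phase I genes outside P450 and FMO, 0 were called (median 0.02). PON1, a secreted lactonase of liver, had the smallest p (20.6 ± 3.70 and 12.0 ± 0.35 TPM, adjusted p = 0.0772, limma).

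Since FMO1 marks fetal liver, other genes higher in fetal liver were set beside it. Of 15 tested, SULT1E1 fell, CYP1A1 rose and 13 did not pass, with a median of 0.03 and 4 of 15 below 0. SULT1E1, which sulfates estrogens, had a log2 difference of -1.61 (SE 0.18, adjusted p = 0.0171, limma), with levels of 5.07 ± 1.10 and 0.97 ± 0.10 TPM. With 1 library left out, SULT1E1 passed in 2 of 6 fits (not without replicate 2 or 3 of either group) and CYP1A1 in 1, the fit that omits HFPO-TA replicate 1 (highest adjusted p 0.158 and 0.189). CYP3A7, the fetal liver P450, named after its values were seen, stood at 2.55 ± 0.17 and 3.13 ± 1.87 TPM. Of 15 tested genes of adult liver 0 were called, with a median of -0.07 and 9 of 15 below 0. In 7 of these 15, and in 3 of the 15 fetal forms, all HFPO-TA libraries lay below all DMSO libraries, against 9.4% of all tested genes. ALB had the smallest p (113 ± 14.3 and 64.7 ± 9.84 TPM, adjusted p = 0.0522, limma).

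Liver regulators had 24 tested genes and 0 called (median 0.03). HNF4A and YY1, which have been studied as regulators of the FMO1 promoter, are given after their values were seen. HNF4A stood at 49.3 ± 3.70 and 38.4 ± 1.21 TPM (adjusted p = 0.119, limma), a value that is uncertain because an antisense gene overlaps it. YY1 stood at 31.4 ± 3.52 and 39.8 ± 2.69 TPM (adjusted p = 0.231, limma). Neither passed, though neither had groups that overlapped, HNF4A being lower and YY1 higher with HFPO-TA. Of the 24 tested regulators, 5 had groups apart and lower and 5 apart and higher. Among all tested genes 9.4% were apart and lower. The part of these regulators in the level of FMO1 was not tested.

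**Figure D4:**
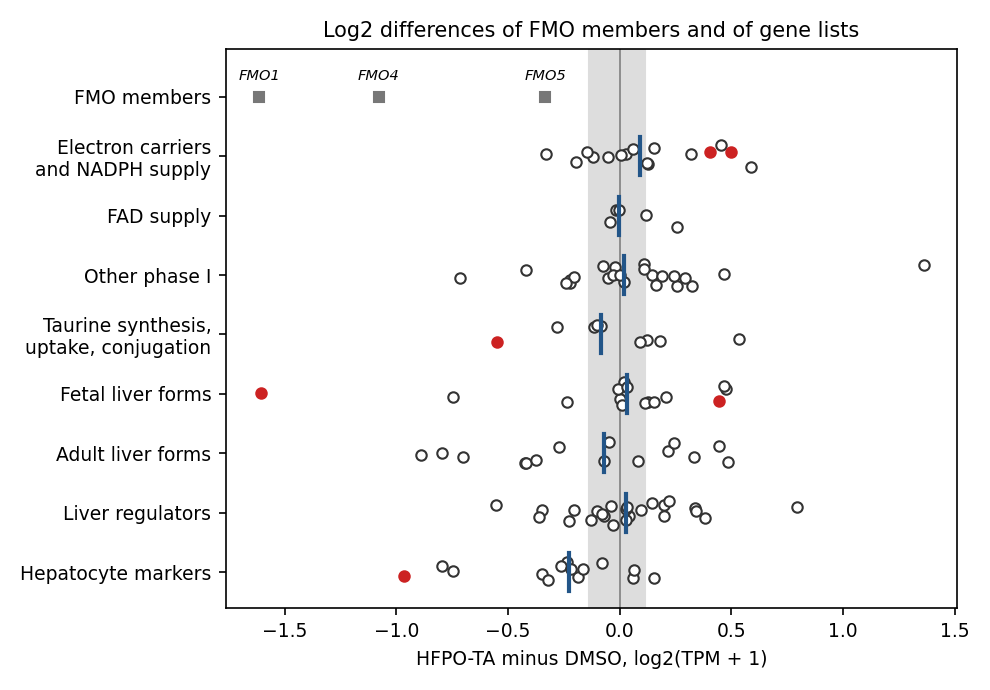
Log2 differences, HFPO-TA minus DMSO on log2(TPM + 1), of the tested FMO members and of the genes of each list (members: grey squares; list genes: circles, filled red at an adjusted p under 0.05; blue bar: list median; grey band: lower to upper quartile of all tested genes). FMO1 at -1.61 and SULT1E1 among the fetal forms lie farthest to the left, while the medians of the 7 lists lie between -0.08 and 0.09 and that of the hepatocyte markers at -0.23.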

How the data were processed

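RNA sequencing values were used for 6 libraries, 3 per group. The deposited column is headed FPKM, but each column sums to between 995690 and 996186, so the values were read as TPM made by the authors. Per the submitters' processing notes, the tools were HISAT, Bowtie2 and RSEM and the build was GRCh38.p13, with no versions. Annotation and strandedness: not given in the sources used here. Depth cannot be read from TPM, so no counting interval is given. The 15664 genes that reached 1 TPM in 3 or more libraries were fitted on log2(TPM + 1) with limma 3.58.1 in R 4.3.3, with treatment as the only term and a trended, robust variance; a Benjamini-Hochberg adjusted p under 0.05 over all tested genes, 2-sided, was called. Fold changes on this scale understate those of low genes. The fit was tested on simulated data. The simulation drew independent normal noise, without outlying libraries or effects shared by a replicate, so it does not cover those. The members and lists were chosen with earlier results of these data known.

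Genes were named by rule: all members; in each list up to 4 called genes or, with none, that with the smallest p; protein-coding neighbours within 200 kb; and the 5 (group means removed: 3) protein-coding genes of highest r with each tested member. Names outside the rule are marked in the text as picked afterwards. A few genes within it are not reported here. Positions came from GENCODE 29 and promoters from RefSeq (35116 windows). Alternatives covered pseudocount, filter, variance, scaling, gene type, replicate terms and each library left out. Figures were drawn with matplotlib 3.10.9.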

Additional observations from a re-analysis of the deposited data

How the results depend on the processing

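FMO1, FMO4 and FMO5 were lower with HFPO-TA in all 18 alternatives. This is a description, since every alternative reuses libraries of the contrast that chose the family, and none is a check of direction. Changes of filter, variance setting or replicate term left these differences as they were. FMO1 lay past the call threshold, which is no test of it, as written and in 9 of the 18 alternatives. It lay short of it at a filter of 0.1 TPM, without a filter and without a variance trend, with the difference unchanged at -1.61, and with median-of-ratios scaling (-1.60). FMO1 also lay short of the threshold with the replicate block (-1.61) and when replicate 2 or 3 of either group was left out. Without 1 library or without replicate 1 of both groups its difference ran from -1.94 to -1.43; that of FMO4 ran from -1.57 to -0.13 and that of FMO5 from -0.41 to -0.25 without 1 library.

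Called genes, 77 in the fit as written, numbered 29 at the filter of 0.1 TPM, 10 without a filter and 11 without a variance trend. They numbered 30 under median-of-ratios and 39 under upper-quartile scaling, 207 with a term for replicate 1, and 6 to 291 with libraries left out. Genes of the 7 lists, 5 as written, numbered 1, 0, 1, 1, 1 and 14 in the same order, 8 with protein-coding genes alone and 0 to 11 with libraries left out. The share of higher genes was 37.7% as written, 60.0% without a filter, 72.7% without a variance trend, 25.5% without DMSO replicate 1, 71.4% without DMSO replicate 2 and 70.0% without HFPO-TA replicate 3; it was 100% when DMSO replicate 3 (7 genes called) or HFPO-TA replicate 2 (6 genes) was omitted. Fewer libraries or more genes were then fitted in some of these; beyond that the cause was not tested.

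The labels state no pairing. Deviations of same-numbered libraries correlated at 0.184, 0.123 and 0.028, and those of differently numbered libraries at -0.158 to 0.068. HFPO-TA replicates 1 and 2 matched the same-numbered DMSO library best, while HFPO-TA replicate 3 matched DMSO replicate 2 best. These values do not settle whether the numbers pair the libraries, and the fit as written did not pair them. With the replicate block 30 genes and 2 listed genes were called, and the difference of FMO1 was -1.61. The planned count test was not run, since TPM are no counts.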
